A study of Homo sapiens with 6 samples.

Results

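Methylation at single cytosines of mRNA was compared between monosomes (RNA with 1 ribosome) and heavy polysomes (RNA with more than 5 ribosomes) of HEK293T, a line derived from human embryonic kidney. Sites were joined by position and kept where they were listed in both libraries with at least 20 reads in each, which gave 90 of the 542 sites found in the whole gradient, in 88 of 501 genes. No shared site was lost to the read minimum, and the lowest coverage among them was 20 reads. A further 87 sites were listed for monosomes and not for heavy polysomes, and 135 the other way round.

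Both libraries came from wildtype cells lysed with 100 µg/ml cycloheximide, which holds ribosomes on mRNA, and from poly(A) RNA recovered from a 10 to 50% sucrose gradient. The free RNA, small subunit, large subunit and light polysome (2 to 5 ribosomes) fractions of the gradient were profiled in the same way, with 1 library per fraction and no replicates. Each Fisher's exact test below therefore compares 2 libraries and not 2 conditions. The intervals cover the counting of reads only and not the spread between libraries. Reads carried no molecular identifiers, so amplified copies of 1 molecule could not be told apart and counted as separate reads. Lists of methylated sites hold no expression levels, so the cell line and the fractions could not be checked against marker genes. Listed sites held 156825 reads in monosomes and 50416 in heavy polysomes, of which the 5 deepest sites held 68.9% and 36.3%.

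5-methylcytosine (m5C) is a cytosine with a methyl group on carbon 5 of the ring. In RNA bisulfite sequencing an unmethylated cytosine is read as T and m5C is read as C, so the m5C level is the percentage of reads with C. In mRNA the methyltransferase NSUN2 modifies Type I sites, often followed by G-rich bases, and NSUN6 modifies Type II sites, followed by UCCA and often lying in a loop. Below, sites followed by UCCA were labelled Type II and all others Type I. The label Type I therefore does not name the enzyme of a site. Polysomes carry mRNA under active translation by many ribosomes at once, and long coding sequences can hold more ribosomes than short ones.

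A selection of the called sites shows both kinds of sequence context. Each is read 5′ to 3′ from the GRCh37 transcript, 10 nt on either side, and the capitals mark the measured C and the 4 bases after it. The first 4 are Type II sites in coding sequence (CDS), of which CABIN1 was lower in monosomes and the rest were higher.
RPSA: guguuauaucCUCCAggaaua
SLC25A6: ccgccgccauCUCCAagacgg
C19orf70: cccgcgaguaCUCCAaggagg
CABIN1: ugaaggugucCUCCAugcuuc
The next 6 are labelled Type I because UCCA does not follow the C, and all were higher in monosomes. Among them MT-RNR1 is an rRNA and not an mRNA. The C is followed by at least 2 G within 3 bases in each of them but MT-RNR1, which was also the exception among all 9 called Type I sites.
CHCHD10: caccaugccuCGGGGaagccg
WIZ: cgacacacugCGAGAgauccu
QARS: ccucccgacuCAGGGauaccc
ADCK4: auguacaguuCGAGGggccgc
GNAS: ggggcccggcCGAGGcaauaa
MT-RNR1: acacaccgccCGUCAcccucc
UCCA follows every Type II site by definition of the label, so its presence at sites that differed in opposite directions is no result.

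The m5C level differed at 18 of the 90 shared sites (20.0%), being higher in monosomes at 16 (17.8%) and lower at 2 (2.22%; Fisher's exact test, Benjamini-Hochberg adjusted over all 90). By sign alone, 55 sites were higher and 35 lower in monosomes, and 22 had an unadjusted p under 0.05. The median level was 24.8% in monosomes and 20.8% in heavy polysomes, and the median of the differences, monosome minus heavy polysome, was 1.87 percentage points (quartiles -3.24 and 7.93). The called differences ranged in size from 5.23 to 42.9 points. Other exact copies of the 21 nt in the genome were found for 5 of the 18 called sites, 12 of the 72 uncalled sites and 17 of all 90. The 5 called ones were among the 16 higher in monosomes. When each log odds ratio was tested against the median one, 13 sites were called, 9 higher and 4 lower. Centring puts as many sites above as below the reference, so this split does not bear on the direction. With read counts halved 7 sites were called.

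**Figure D1:**
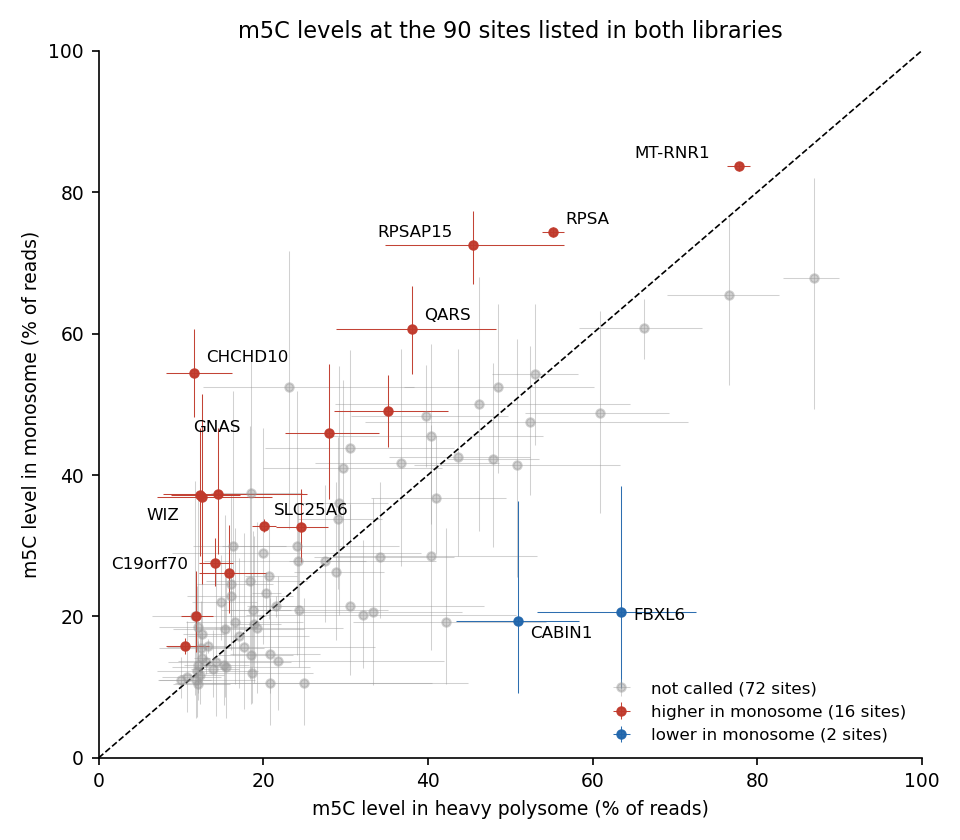
m5C level (percent of reads) in heavy polysomes on the x axis and in monosomes on the y axis for the 90 shared sites, with 95% Wilson intervals, red for the 16 sites higher and blue for the 2 lower in monosomes, grey for the other 72. The red sites lie above the dashed line of equal levels, CHCHD10 at 54.5% against 11.6%, and the blue sites FBXL6 and CABIN1 lie below it.

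Several of the called sites lie in genes of mitochondrial proteins. A list of nuclear genes for mitochondrial proteins, matched by gene name, held 8 shared sites. Of these 8, 4 were called higher in monosomes and 0 were called lower, against 17.8% and 2.22% over all 90 sites. By sign 5 were higher and 3 lower, and the median difference was 7.86 points against 1.87 over all sites. Median coverage of the 8 was 449.5 reads in monosomes and 294.5 in heavy polysomes, against 69 and 139.5 over all sites, and its part in the count was not tested. The list is not complete, so these values describe its members only. ADCK4, called higher, and PET100, not called, are described below and lie outside it. So do SPG7 (difference -1.15 points) and SCO1 (2.13 points), also genes of mitochondrial proteins and not called. CHCHD10 encodes a protein of the mitochondrial intermembrane space. Its Type I site lies on chromosome 22 at position 24110055, minus strand, in the CDS of exon 1. The level was 54.5% of 246 reads in monosomes (Wilson interval 48.2 to 60.6) and 11.6% of 242 reads in heavy polysomes (8.13 to 16.2). The difference of 42.9 points (interval 35.1 to 49.9; Fisher's exact test, adjusted p = 2.22e-23) was the largest upward one. In the lighter fractions the site stood at 47.6% in free RNA, 55.2% with the small subunit and 51.1% with the large subunit, so the heavy polysome library was the low one of the 5 that listed it. It was not listed in light polysomes.

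SLC25A6 encodes an ADP/ATP translocase of the inner mitochondrial membrane. Its Type II site (chromosome X, position 1510840, minus strand, CDS of exon 1) fell from 32.9% of 9656 reads in monosomes to 20.1% of 2871 reads in heavy polysomes, a difference of 12.8 points (11.02 to 14.5; Fisher's exact test, adjusted p = 7.34e-40). Light polysomes lay between, at 26.2%, and the 3 lighter fractions were close to the monosome value, from 30.3% to 32.0%. C19orf70 encodes a subunit of the MICOS complex, which shapes the cristae. Its Type II site (chromosome 19, position 5678604, minus strand, CDS of exon 4) was at 27.6% of 653 reads in monosomes and 14.1% of 1103 reads in heavy polysomes, 13.4 points apart (9.48 to 17.5; Fisher's exact test, adjusted p = 2.29e-10). Here the light polysome level of 14.4% was already as low as that of heavy polysomes.

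ATP5SL, whose product takes part in complex I assembly, carried a Type II site (chromosome 19, position 41944214, minus strand, CDS of exon 2) at 46.0% of 100 reads in monosomes and 27.97% of 236 reads in heavy polysomes, 18.03 points apart (6.83 to 29.1; Fisher's exact test, adjusted p = 0.0103). The other 4 members did not pass the test. NDUFB7, a complex I subunit, was at 23.3% and 20.4%, and SLC25A39, a carrier, at 10.5% and 12.1%. TIMM50, a subunit of the inner membrane import machinery, was at 48.8% and 60.9%, and the mitochondrial ribosomal protein gene MRPS25 at 28.4% and 34.2%.

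In genes of the translation machinery, RPSA encodes a protein of the small ribosomal subunit, and its Type II site (chromosome 3, position 39450197, plus strand, CDS of exon 3, codon position 3) had the most reads of all shared sites. The level was 74.3% of 15321 reads in monosomes (73.7 to 75.03) and 55.2% of 5522 reads in heavy polysomes (53.9 to 56.5), 19.2 points apart (17.7 to 20.6; Fisher's exact test, adjusted p = 1.85e-146). The other libraries lay between these values, at 62.9% in free RNA, 63.2% with the small subunit, 66.1% with the large subunit and 63.9% in light polysomes. The site was thus highest in monosomes and lowest in heavy polysomes of all 6. The same 21 nt occur at 17 other places in the genome, so reads of processed copies may have been mixed with those of RPSA. Whether longer stretches of the reads tell them apart was not tested. One of these, the pseudogene RPSAP15, was listed with 72.5% of 280 reads and 45.5% of 77 reads, and its difference of 27.0 points (14.7 to 38.8; Fisher's exact test, adjusted p = 2.27e-04) is no separate evidence.

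The second shared site in a ribosomal protein gene, in RPS2, was at 15.8% of 5959 reads in monosomes and 13.3% of 762 reads in heavy polysomes and did not pass the test. A pseudogene with the same 21 nt, RPS2P5, was called at 15.8% and 10.5% (Fisher's exact test, adjusted p = 0.0103), and that window has 10 other exact copies, so reads of gene and pseudogene could be exchanged. Among 5 shared sites in translation factor and tRNA synthetase genes 1 was called, the same share as over all sites (20.0%), and by sign 3 were higher and 2 lower in monosomes. The called site lies in QARS, the glutaminyl-tRNA synthetase gene (Type I, chromosome 3, position 49141833, minus strand, CDS of exon 2), at 60.7% of 234 reads against 38.0% of 92 reads, 22.6 points apart (10.6 to 33.7; Fisher's exact test, adjusted p = 0.00315). The QARS level was between 59.0% and 62.8% in the subunit fractions and 44.8% in light polysomes. Not called were the poly(A)-binding protein gene PABPC1 (21.4% and 21.6%), the termination factor gene ETF1 (11.5% and 10.7%), EIF2S3 (11.04% and 10.0%, in a window with 333 other exact copies), which encodes a subunit of the factor that brings the initiator tRNA, and the S6 kinase gene RPS6KB2 (60.8% and 66.2%).

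The single site of the mitochondrial genome lies in MT-RNR1, which encodes the 12S rRNA of the mitochondrial ribosome. It was at 83.7% of 11494 reads in monosomes and 77.8% of 3407 reads in heavy polysomes, 5.88 points apart (4.35 to 7.45; Fisher's exact test, adjusted p = 2.31e-13). Its levels in free RNA and with the small subunit were lower than both, at 56.4% and 59.7%, so the order over the gradient differed from that of the nuclear genes above.

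The remaining sites that were higher in monosomes lie in genes of varied function. WIZ, which encodes a zinc finger partner of histone methyltransferases, was at 37.1% of 105 reads against 12.3% of 235 reads (24.8 points, 14.9 to 35.0; Fisher's exact test, adjusted p = 5.49e-06), with 47.1% in the large subunit and 30.9% in the light polysome library. GNAS, which encodes the stimulatory G protein alpha subunit, carried the one called 5′ UTR site (chromosome 20, position 57466440, plus strand), at 37.3% of 110 reads against 14.5% of 62 reads (22.8 points, 9.01 to 34.2). ADCK4, a kinase-like gene of coenzyme Q synthesis, was at 37.0% of 46 reads against 12.5% of 88 reads (24.5 points, 9.39 to 39.9). For both sites Fisher's exact test gave adjusted p = 0.0103, and with at most 110 reads per library their intervals are wide.

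TRAF7, a ubiquitin ligase gene, was at 49.1% and 35.2% (13.9 points, 5.02 to 22.2; Fisher's exact test, adjusted p = 0.0148). The PDZ adaptor gene GIPC1 was at 20.1% and 11.8% (8.29 points; Fisher's exact test, adjusted p = 0.0230), and TARBP2, which encodes a partner of Dicer, at 26.2% and 15.8% (10.4 points; Fisher's exact test, adjusted p = 0.0374). RTN3, which encodes a reticulon of the endoplasmic reticulum, had the one called 3′ UTR site, at 32.7% and 24.5% (8.16 points; Fisher's exact test, adjusted p = 0.0452). These last sites lay near the threshold of 0.05.

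Lower in monosomes were 2 Type II sites in CDS. FBXL6 encodes an F-box protein, a substrate receptor of ubiquitin ligases, and its site (chromosome 8, position 145580656, minus strand, exon 4) was at 20.7% of 29 reads in monosomes and 63.4% of 93 reads in heavy polysomes. The difference was -42.8 points (-56.9 to -22.4; Fisher's exact test, adjusted p = 9.29e-04). Its level was 24.4% with the small subunit, 23.5% with the large subunit and 37.2% in light polysomes. CABIN1 encodes a calcineurin inhibitor, and its site (chromosome 22, position 24560499, plus strand, exon 30) was at 19.4% of 31 reads and 50.9% of 167 reads, a difference of -31.5 points (-44.2 to -13.0; Fisher's exact test, adjusted p = 0.0103), with 17.2% in the large subunit and 29.3% in the light polysome library. In both genes the level was higher in each fraction from monosomes to light and to heavy polysomes. Both rest on about 30 monosome reads, and with at least 50 reads in each library neither remained in the comparison. Just past the threshold, with the same sign, were PVRL2, the nectin-2 gene (67.9% of 28 reads and 86.9% of 382 reads, adjusted p = 0.0510), and NUDT3, which encodes a nucleotide hydrolase (19.1% of 47 reads and 42.2% of 64 reads, adjusted p = 0.0613, both by Fisher's exact test).

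**Figure D2:**
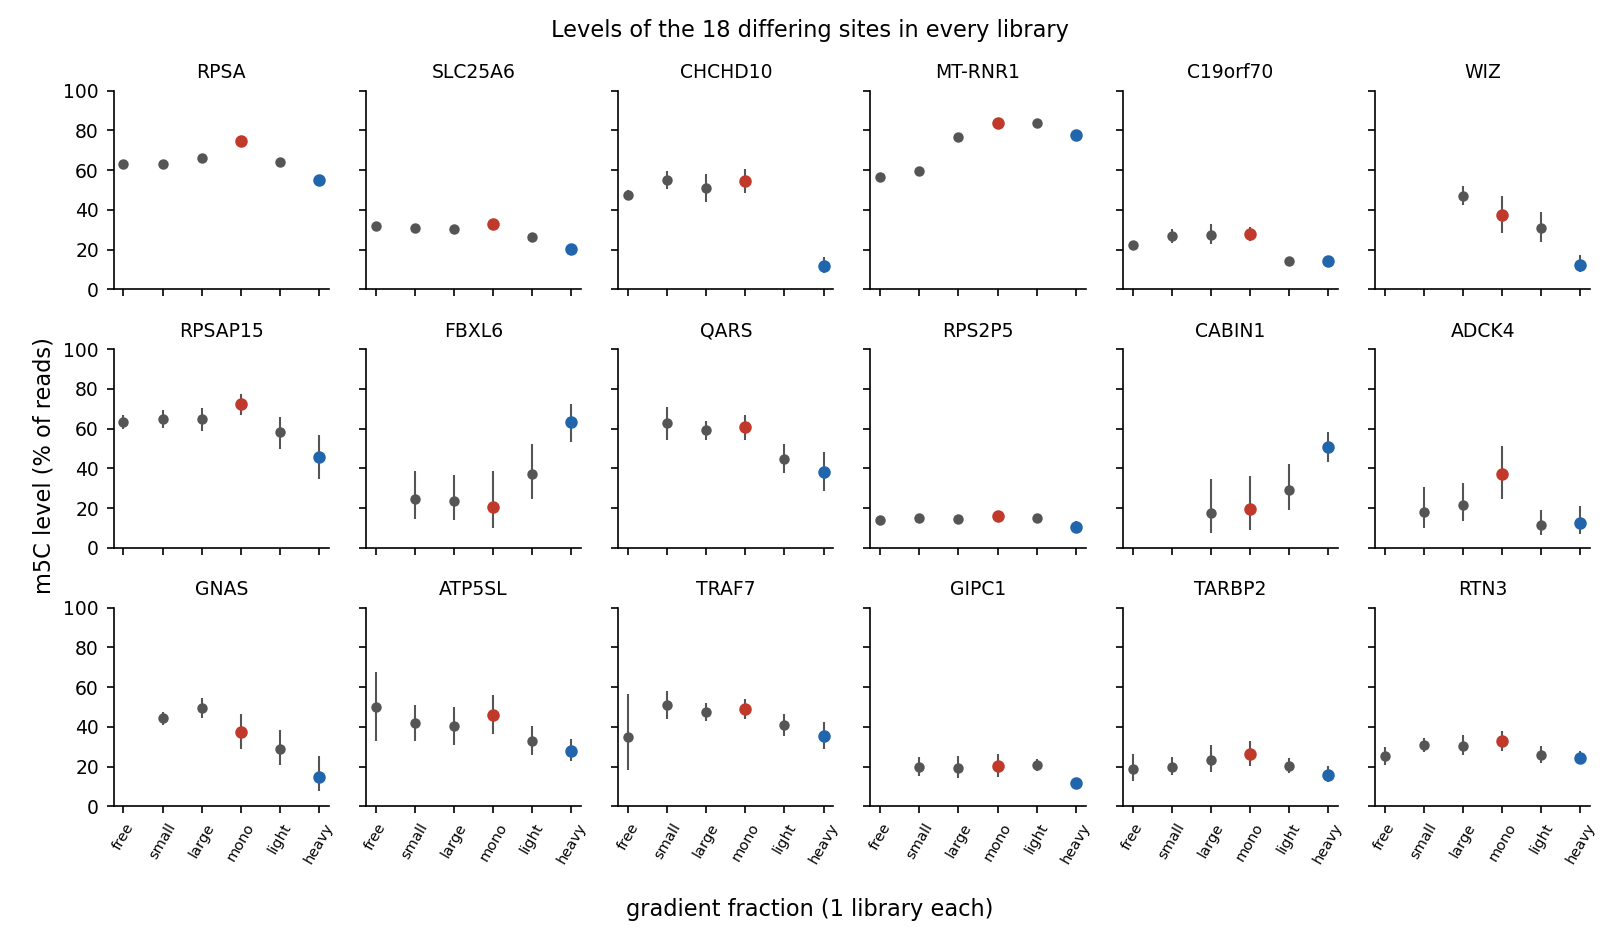
m5C level (percent of reads, with 95% Wilson intervals) of the 18 differing sites in the free, small subunit, large subunit, monosome (red), light polysome and heavy polysome (blue) libraries, 1 library each, with no point where a site was not listed. CHCHD10 is at 11.6% in heavy polysomes and above 47% in the other libraries that listed it, and FBXL6 and CABIN1 are highest there.

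Light polysomes, which entered neither side, lay between the monosome and the heavy polysome level at 13 of the 15 upward sites listed there (1 was above both and 1 below both) and at both downward sites. Of the 65 uncalled sites listed in light polysomes, 22 lay between, 19 above both and 24 below both. The called sites had been chosen for the distance between their ends, which leaves more room between them, and no test was made.

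The sites that did not pass the test ranged from tightly bounded to unresolved. The median half-width of the interval of the difference was 12.01 points over the 90 sites and 5.88 over the 30 with at least 100 reads in both libraries. Of the 72 uncalled sites, the interval stayed within 5 points of 0 at 4 and within 10 points at 13, and it reached beyond 20 points at 32. NT5DC2, with the narrowest interval, was at 13.6% of 1219 reads and 13.1% of 1925 reads (difference 0.527 points, -1.88 to 3.02). PABPC1 was bounded to -3.47 to 2.94 points, RPS2 to -0.209 to 4.95, NDUFB7 to -0.349 to 6.37, MARCKSL1 to -1.53 to 5.35 and PET100 to -2.42 to 4.86. MARCKSL1 encodes a MARCKS-like actin-regulating protein and PET100 an assembly factor of cytochrome c oxidase. At the 36 sites whose smaller coverage was 20 to 50 reads, 1 was called upward and 2 downward, whereas at the 14 sites with 300 reads or more in both, 6 were called upward and 0 downward. The share called was 8.33% in the first of these classes and 42.9% in the second. Levels in both libraries were related over the 90 sites (Spearman's rho 0.665, Pearson's r 0.739), while the difference had almost no relation to the ratio of coverages (rho 0.0837); the sites of a library share its depth and conversion.

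The site types and transcript regions were then described side by side. Over all 90 sites 20.0% were called, 17.8% upward. Of 54 Type I sites, 9 (16.7%) were called upward and 0 downward, with a median difference of 3.37 points. Of 36 Type II sites, 7 were called upward and 2 downward, with a median of -0.0542 points. Within Type I, 8 of the 37 G-rich sites were called (21.6%) and 1 of the other 17 (5.88%). Their medians were 5.23 and 0.732 points. The CDS held 49 shared sites, 11 called upward and 2 downward (26.5% called, median 2.80 points). The 3′ UTRs held 32, of which 1 was called (3.13%, median -1.79 points). Median coverage was 67 and 54.5 reads in monosomes and 242 and 104 in heavy polysomes for CDS and 3′ UTRs, and its part in the difference between them was not tested. Among 11 Type II sites in 3′ UTRs, 9 were lower in monosomes by sign and 0 were called, with a median of -6.66 points. FURIN, a proprotein convertase gene, was an example at 65.5% of 58 reads and 76.6% of 145 reads. Of the 4 sites in 5′ UTRs only GNAS was called. By sign 3 were positive and 1 negative, with a median of 18.0 points.

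**Figure D3:**
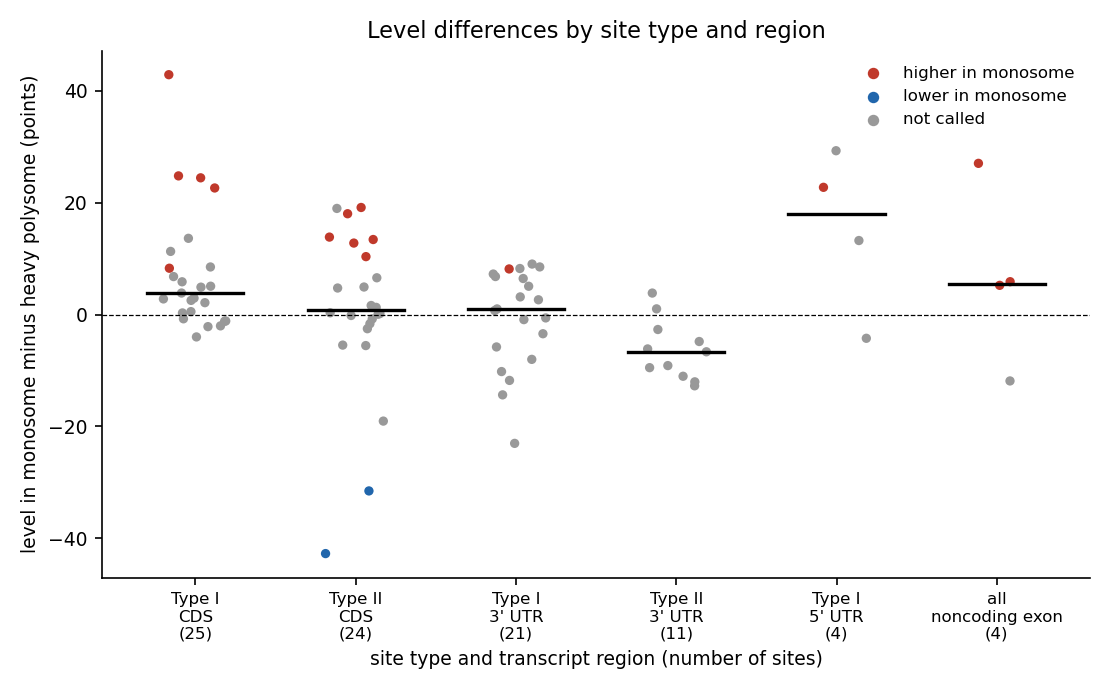
Difference of the m5C level, monosome minus heavy polysome (percentage points), of each shared site by type and transcript region, with the number of sites under each class, black bars at the medians and colours for called sites. The upward calls lie mainly in CDS, and the 11 Type II sites in 3′ UTRs lie mostly below 0 around a median of -6.66.

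Of the 49 CDS sites 26.5% were called. At codon position 3 these were 7 upward and 2 downward among 22 sites, at position 1 they were 4 upward among 17, and at position 2 there were 0 among 10. Median coverage was 138 reads in monosomes and 303 in heavy polysomes at position 3, 80 and 242 at position 1 and 58 and 112 at position 2, and its part in these counts was not tested. Most sites at position 3 were Type II (15 of 22). In folds of the 50 bases on either side, the probability that the C is unpaired had a median of 0.255 for Type I and 0.800 for Type II shared sites. For the 7 upward Type II sites the median was 0.195, from 0.0399 in SLC25A6 to 0.942 in ATP5SL, and it was 0.481 without RPSAP15, which repeats the window of RPSA. The 27 uncalled Type II sites had a median of 0.836. For Type I the medians were in the opposite order, 0.622 for the 9 upward and 0.195 for the 45 uncalled sites. The 0.622 is the value of MT-RNR1, an rRNA, and the 9 ranged from 0.0013 in GNAS to 0.9995 in GIPC1. GNAS, ADCK4, WIZ and RPS2P5 had a mostly paired C and CHCHD10, QARS, RTN3 and GIPC1 a mostly unpaired one. Among the upward Type II sites, RPSA (0.129), RPSAP15, C19orf70 and SLC25A6 had a mostly paired C and TRAF7, TARBP2 and ATP5SL a mostly unpaired one. The other lists were too short to describe as groups. The called sites of SLC25A6 and FBXL6 were among the 2 in solute carrier genes and the single one in ubiquitin ligase subunit genes, where 20.0% of all sites were called. The single site of the zinc finger list, in ZNF692, was not called. The lists of histones and of RNA-binding and splicing genes held no shared site. All lists were matched by gene name and are not complete. WIZ, which encodes a zinc finger protein, and PABPC1, which encodes a poly(A)-binding protein, were outside the zinc finger and RNA-binding lists.

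The large subunit and the light polysome libraries share no reads with the monosome and the heavy polysome libraries, and they form a second pair along the same gradient. Both pairs span the stretch from monosomes to light polysomes, so they are not successive steps. The second pair shared 127 sites, of which 12 differed (9.45%, Fisher's exact test, adjusted p under 0.05). In the large subunit 10 were higher (7.87%) and 2 lower (1.57%). Of the 16 upward sites above, 15 could be compared there. By sign, 12 of them were also higher in the large subunit, as were 35 of the 58 uncalled sites and 72 of all 127. The test was passed by 6, in RPSA, SLC25A6, C19orf70, WIZ, QARS and GNAS. The median difference of the 15 was 6.55 points, against 2.78 over the 58 uncalled sites. The 15 and the 12 include RPSAP15, which repeats the window of RPSA and was itself the site at this median of 6.55. C19orf70 differed by nearly the same amount in both pairs, by 13.4 and 13.1 points, and GNAS by 22.8 and 20.5. FBXL6 and CABIN1 were again lower on the lighter side, by -13.7 points (-31.4 to 4.75) and -12.1 points (-28.02 to 7.99), and neither passed the test. PVRL2, just past the threshold above, was called lower in the large subunit, at 56.2% against 82.7% in light polysomes (Fisher's exact test, adjusted p = 0.0101). Over the 75 sites in both comparisons the differences had a Spearman's rho of 0.397 and a Pearson's r of 0.475.

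The size of the change itself differed between the pairs at 3 of the 75 sites, by a test of the difference of log odds ratios. RPSA changed by 19.2 points between monosome and heavy polysome and by 2.17 points (1.14 to 3.19) between large subunit and light polysome, and SLC25A6 by 12.8 and 4.03 points. MT-RNR1 went in opposite directions, 5.88 points higher in monosomes and -7.16 points (-7.97 to -6.34) in the large subunit.

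**Figure D4:**
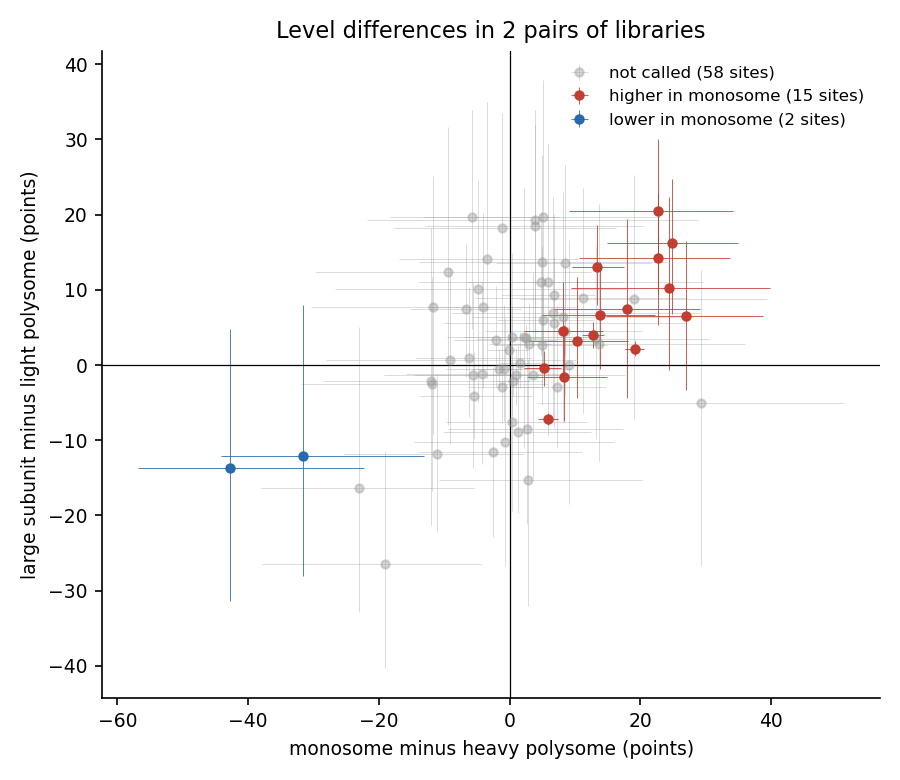
Difference of the m5C level, monosome minus heavy polysome (x axis) against large subunit minus light polysome (y axis), in percentage points with 95% intervals, for the 75 sites in both comparisons, coloured by the call on the x axis. By sign 12 of the 15 red sites lie above 0 on the y axis, and both blue sites lie below it.

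The lists themselves overlapped in part. The 90 shared sites were 50.8% of the 177 monosome sites and 40.0% of the 225 heavy polysome sites. By gene, 90 were listed in both, 78 in the monosome library alone of the pair and 123 in the heavy polysome library alone. A list holds called sites with at least 20 reads and a level of at least 10%, so a site that is absent from one could there have lacked reads or stayed just under the filter.

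Sites of the monosome list alone were mostly low in level. Their median level was 13.8% at a median of 68 reads, 51 of the 87 (58.6%) had a level under 15%, and the lower Wilson bound of 62 was under 10%. They were 58 Type I and 29 Type II, with 42 in CDS, 18 in 3′ UTRs and 12 each in 5′ UTRs and noncoding exons, and 10 lay in pseudogenes. Ribosomal protein genes held 5 such sites, among them RPS3, RPS29, RPS21 and RPL32, against 2 of the 90 shared sites. The mitochondrial list also held 5, in SLC25A5, CS, MDH2, NDUFV3 and a second site of ATP5SL, against 8 of the shared sites. The most reads fell on RPS3, at 10.98% of 45532 reads (10.7 to 11.3), and RPS29, at 16.1% of 26073 reads (15.7 to 16.6), both genes of small subunit proteins. RPS3 was at 10.9% to 11.1% and RPS29 at 13.5% to 14.4% in the 3 lighter fractions, and neither was listed in light or heavy polysomes. RPS3 has 2 and RPS29 4 other exact copies of the window in the genome. The next by reads were SLC25A5 at 10.5%, NME1-NME2 at 11.6%, EIF4B at 12.4% and RPS3P6 at 11.2%, all near the filter. The translation list held 4 monosome sites, in EIF4B, HARS and the EIF4B pseudogenes EIF4BP6 and EIF4BP7.

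High levels were few among them. The processed pseudogene RP11-182B22.2 was at 91.7% of 24 reads (74.2 to 97.7) and RPSAP58 at 65.5% of 29 reads (47.3 to 80.1), and RPSAP58 has the 21 nt of RPSA. APBA2, which encodes a neuronal adaptor protein, was at 56.5% of 23 reads and HOXD-AS2, an antisense RNA gene, at 45.5% of 33 reads. APBA2 was also listed at 59.4% in the large subunit and 47.6% in light polysomes.

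Sites of the heavy polysome list alone had a somewhat higher level and fewer reads, with medians of 16.9% and 48 reads, and 56 of the 135 (41.5%) were under 15%. There were 82 Type I and 53 Type II, CDS holding 71, 3′ UTRs 46 and 5′ UTRs 15. Of these, 132 lay in protein-coding genes and 0 in pseudogenes, which held 4 of the 90 shared sites. Ribosomal protein genes and the mitochondrial list had 0 sites, and solute carriers had 4, in SLC10A3, SLC22A17, SLC22A23 and SLC2A13. The translation list had 1, in HDLBP. In the same order these 4 lists held 5, 5, 1 and 4 of the 87 monosome sites and 2, 8, 2 and 5 of the 90 shared sites. A list of sites depends on the coverage of its genes, and these counts were not tested. The most reads were on DBNL, an actin-binding adaptor gene, at 18.5% of 621 reads (15.7 to 21.8), and BUB3, a spindle checkpoint gene, at 13.4% of 583 reads (10.9 to 16.4). FBRSL1 (10.4%), XRCC5 (12.3%), ATXN7L3B (13.6%) and SRCAP (10.3%) followed at 223 to 297 reads. DBNL was listed at 24.2% in the large subunit and 25.6% in light polysomes, and BUB3 at 18.0% in free RNA. The highest levels were in KREMEN2, a gene for a receptor of the Wnt inhibitor Dickkopf, at 82.4% of 34 reads (66.5 to 91.7), RP11-54O7.3 at 78.6% of 28 reads (60.5 to 89.8), FAM129B at 65.0% of 40 reads (49.5 to 77.9) and SLC22A17, an organic cation transporter family gene, at 55.1% of 69 reads (43.4 to 66.2). KREMEN2 was listed in no other library, RP11-54O7.3 also in light polysomes at 90.5%, and FAM129B also in the large subunit at 81.5%.

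The other fractions listed the 2 sets differently. Of the monosome sites, 45 of 87 were also listed in the large subunit, 43 in the small subunit, 32 in free RNA and 23 in light polysomes, and 22 in none of these. Of the heavy polysome sites, 50 of 135 were also listed in light polysomes, 32 in the large subunit, 17 in the small subunit and 9 in free RNA, and 69 in none. Coding sequences were longer on the heavy side. The median CDS length was 1144.5 nt for 72 monosome sites in protein-coding genes, 1419 nt for 85 shared sites and 1966.5 nt for 132 heavy polysome sites, with quartiles of 748.5 and 1839 nt, 774 and 1911 nt, and 1286.25 and 3048 nt. These quartile ranges overlapped, and no test was made because a list depends on the coverage of its genes.

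**Figure D5:**
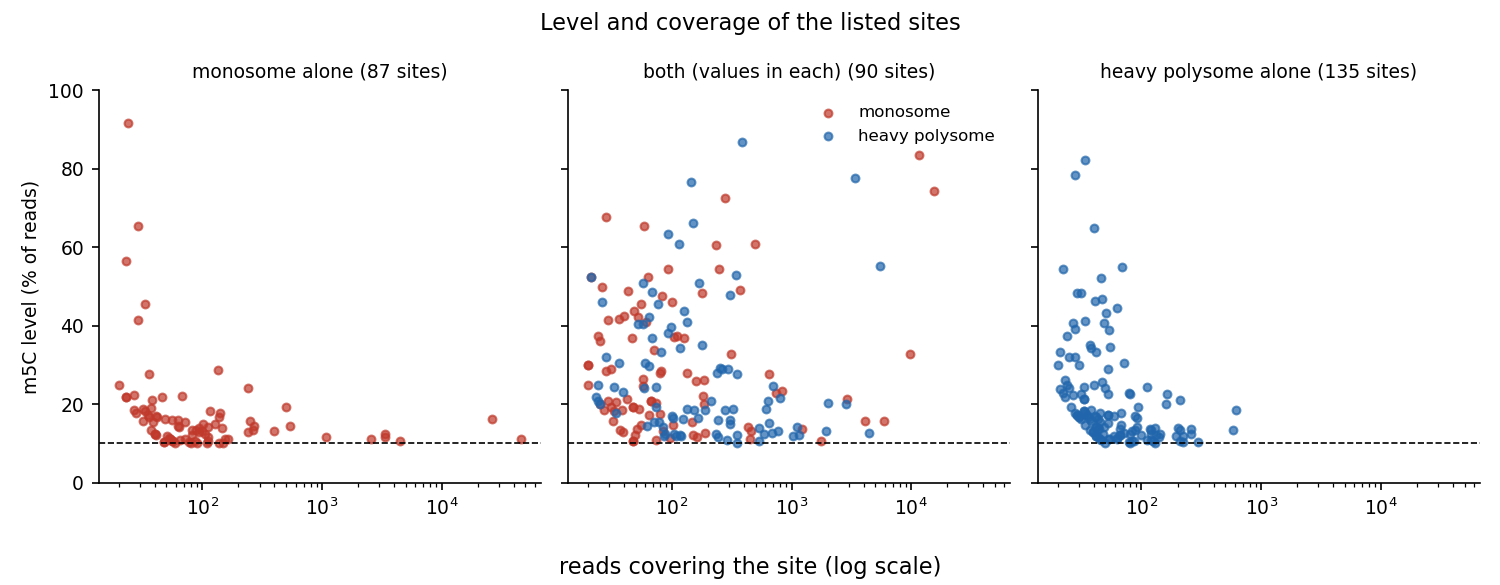
m5C level (percent of reads) against the number of reads at the site (log axis) for the 87 sites of the monosome list alone, the 90 shared sites with their values in each library, and the 135 sites of the heavy polysome list alone, with a dashed line at 10%. Sites listed on one side gather near the line, with medians of 13.8% and 16.9%, and few exceed 50%.

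In 8 genes listed on both sides the sets of sites differed, namely WIZ, OTUD5, ATP5SL, TRAF7, ATP6V0E2, GPR137, TBKBP1 and PIK3R2. WIZ, ATP5SL and TRAF7 each carried a second, Type I site that was listed in monosomes and not in heavy polysomes, at 13.8% of 94 reads, 11.04% of 163 reads and 19.2% of 495 reads. The reverse held for ATP6V0E2, GPR137 and PIK3R2, whose second sites were listed in heavy polysomes alone of the pair at 17.8% of 45 reads, 15.6% of 45 reads and 11.1% of 45 reads. OTUD5, a deubiquitinase gene, had one site on each side, at 25% of 20 reads and 11.1% of 54 reads. TBKBP1, which encodes an adaptor of the kinase TBK1, did too, at 10.2% of 59 reads and 13.5% of 89 reads, on chromosome 17 at positions 45786512 and 45786514. MDM4, a regulator of p53, held 3 shared sites in its 3′ UTR within 9 bases, all lower in monosomes by sign and none called (10.6% to 13.7% against 20.8% to 25%), and the same reads can cover all 3. Their 21-nt windows have 861, 848 and 21717 other exact copies in the genome, so the reads cannot be assigned to MDM4 with certainty.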

How the data were processed

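RNA bisulfite sequencing of 6 gradient fractions was used, and the monosome and heavy polysome libraries were compared. Per the submitters' processing notes and the methods, the authors trimmed reads with cutadapt 1.13 and Trimmomatic 0.36, and mapped them to the converted GRCh37 genome with HISAT2 2.10 and to Ensembl 75 transcripts with Bowtie2 2.2.9. Deposited coverage values are read counts (C plus T) per called site, not scaled for depth. The authors' m5C levels are fractions, C reads divided by coverage. The deposited p-value comes from the authors' binomial test and was used to describe the lists only. The authors kept bases of quality 30 or more, levels of at least 10% and p under 0.001, and removed reads and genes with poor conversion. A site near 10% can therefore enter one list and miss another.

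C reads were level times coverage, whole within 0.001 at all 1222 listings. Sites were placed in GENCODE 44 transcripts lifted to GRCh37 by gene identifier (534 of 542 sites), 21-nt windows were searched in the genome on both strands as given and after C-to-T conversion, and folds used ViennaRNA 2.7.2. Levels were compared with Fisher's exact test (two-sided) and Benjamini-Hochberg adjustment at 0.05; levels carry Wilson and differences Newcombe intervals at 95%. Data were simulated for the 2 libraries with 1000 sites. Of these, 200 were changed by 15 points, or by less where the level would have come near an end of the scale. The test called 43.5% of the changed sites, 2.25% of its calls were unchanged sites, and 94.2% of the intervals held the true difference. Simulated reads were independent and no filter on the level was applied, unlike in the lists. Median coverage of the shared sites was 69 and 139.5 reads, and the half-widths of their intervals are given with the results.

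One item is not reported here. The members and gene lists were chosen with earlier results of these data known. Named were all called sites, the 6 uncalled sites with the narrowest intervals, the 6 one-sided sites with most reads and the 4 with the highest level on each side, and genes whose sites differed between the sides; further genes of the lists, PVRL2, NUDT3, FURIN and MDM4 were named after their values were seen. Alternatives covered read minima, mean level, protein-coding genes, unique windows, the score test, Holm adjustment, halved counts and centring. Software was Python 3.11.15 with scipy 1.17.1, numpy 2.4.6, matplotlib 3.10.9 and pandas 2.3.3.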

Additional observations from a re-analysis of the deposited data

Results flagged for a closer look

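At 3 sites the change from monosomes to heavy polysomes differed from the change from the large subunit to light polysomes, by a two-sided normal test of the difference of log odds ratios over 75 sites that was chosen after the data were seen. Benjamini-Hochberg adjusted p-values were 8.10e-79 for RPSA, 2.49e-48 for MT-RNR1 and 1.90e-10 for SLC25A6. RPSA fell by 19.2 points from monosomes to heavy polysomes and by 2.17 from the large subunit to light polysomes. For SLC25A6 the falls were 12.8 and 4.03 points. MT-RNR1 was 5.88 points higher in monosomes than in heavy polysomes and -7.16 points in the large subunit against light polysomes. These were among the sites with the most reads, and no library of them had fewer than 2871. The spread between libraries of one fraction was not measured, and the part of copies of the RPSA and MT-RNR1 windows elsewhere in the genome (17 and 6) was not tested.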

How the results depend on the processing

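The count of differing sites, 18, stayed within 1.5 times under 7 of 10 alternatives. Holm adjustment gave 9 (8 higher, 1 lower), halved read counts 7 (7 higher, 0 lower) and windows with no other converted match 6, with 19 sites tested. Centring gave 13, of which 11 were among the 18. For the large subunit against light polysomes the count of 12 became 7 with Holm adjustment, 2 with halved counts and 4 for windows with no other converted match, where 30 sites were tested. The median difference of 1.87 points had an order-statistic interval over the 90 sites of 0.0560 to 4.75. That interval treats sites as independent draws, although some share reads or windows. It does not measure the spread between libraries. The median became 4.90 for mean levels of at least 20% and 5.07 for windows with no other converted match. A mean weighted by the smaller coverage was 8.74. The value was positive in every alternative computed, and the median log2 ratio of levels was 0.116. Of the 18 sites, 7 kept their call in every alternative that could test them (RPSA, SLC25A6, CHCHD10, MT-RNR1, C19orf70, WIZ and RPSAP15) and 11 lost it in at least 1, most often with halved counts (11) and Holm adjustment (9); 0 changed direction. The alternative on windows with no other exact match, chosen after seeing the data, gave 13 of 73 sites, all among the 18. No paired analysis was possible because each fraction had 1 library. Depth limited the calls, as the interval of 32 uncalled sites reached beyond 20 points.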
